A study of Mus musculus with 8 samples.

Results

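The genes examined were those that encode the replication-dependent histones, taken as every row of the count table whose gene symbol begins with Hist1h, Hist2h, Hist3h or Hist4h. The rule gave 71 of 46078 genes. By symbol, 6 were H1, 20 H2A, 20 H2B, 12 H3 and 13 H4 genes, and 56 belonged to the Hist1 cluster on chromosome 13, 11 to Hist2 on chromosome 3, 3 to Hist3 on chromosome 11 and 1 to Hist4 on chromosome 6 (GRCm38). In the GENCODE vM21 annotation 67 of the 71 were protein-coding, 3 were pseudogenes, and 1, the lesser of 2 rows that carry the symbol Hist2h2bb, was a long noncoding RNA. The name does not describe every gene of the set, since Hist1h1t, Hist1h2aa and Hist1h2ba are known as histone genes of the testis.

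RNA was measured in fully grown germinal vesicle (GV) stage oocytes, which are arrested in meiotic prophase. The control group was 4 libraries of oocytes from Zp3-Cre mice, and the other group was 4 libraries of CNOT7&8 KO oocytes, from mice whose floxed Cnot7 and Cnot8 alleles are deleted by the same Cre. Both genes encode catalytic subunits of CCR4-NOT, the main enzyme that shortens poly(A) tails. The comparison asks how oocyte RNA differs when that activity is lost. Per the study's methods, females of C57BL/6J background were 4 weeks old and oocytes were collected 48 h after injection of PMSG, a gonadotropin that makes follicles grow. Each library pooled 100 oocytes, so more oocytes with an RNA and more of it in each oocyte cannot be told apart. The Zp3 promoter acts in growing oocytes, so RNA made earlier predates the deletion, and cells of the follicle keep both genes. The labels do not say whether libraries of a group came from separate animals, so p-values measure the spread between these libraries, which may be technical.

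The proteins encoded by replication-dependent histone mRNAs package newly copied DNA, and these mRNAs are made mainly during S phase in dividing cells. As a rule they have no introns. Unlike other mRNAs, they usually end without a poly(A) tail, at a conserved stem-loop. SLBP binds this stem-loop, which directs cutting and later decay of the message. Fully grown oocytes do not replicate DNA, yet they store histones and histone mRNA for the divisions after fertilization. The libraries were made from total RNA after removal of ribosomal RNA, per the labels, so that RNA without a tail could be counted, whereas the study's methods name an mRNA kit used with ribosomal RNA depletion.

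The sum of counts was 14943671 to 44092144 in a control library and 8639444 to 26784110 in a KO library. Values are given as CPM, the count divided by the library size after TMM scaling, a method that takes most genes as unchanged. The detection floor, set at 3 counts, was 0.0802 to 0.326 CPM depending on the library and covers counting error only. Cnot8 was at 154 to 197 CPM in control and 33.1 to 36.1 CPM in KO libraries, and Cnot7 at 886 to 1049 and 622 to 789 CPM, neither with overlap. The 9 oocyte markers summed to 14874 to 16253 CPM in control and 11970 to 14184 CPM in KO libraries, without overlap. Among them Zp3 was at 1284 to 1884 CPM in control and 1027 to 1450 CPM in KO libraries. Of the 9, 4 (44.4%) were lower in every KO library, beside 21.4% of all tested genes. In 1 (11.1%) every KO library was higher, beside 27.0%. At the false discovery rate alone 5 oocyte markers were lower and 1 was higher. The summed level of 10 granulosa cell markers was 128 to 173 CPM in control and 215 to 273 CPM in KO libraries. These markers did not move together. Nr5a2 was at 48.3 to 69.3 CPM in control and 114 to 132 CPM in KO libraries, and Kitl at 11.9 to 20.7 and 30.3 to 52.2 CPM. Cyp19a1, the marker of highest mean in control, was lower in every KO library (50.4 to 67.7 and 23.5 to 38.1 CPM, log2 fold change -0.90). Of the 9 granulosa markers tested 6 (66.7%) were upregulated, beside 23.8% of all tested genes, while Foxl2 was at 0 to 0.109 CPM and Amh at 0.0728 to 1.70 CPM. Beside the same 23.8%, Ptgs2 of 4 cumulus cell markers and 2 of 4 immune cell markers were upregulated, and none of 5 stroma or of 9 oocyte markers was called. The other lists summed to at most 48.9 CPM for cumulus, 5.37 CPM for immune and 5.10 CPM for stroma markers in any library, and red blood cell markers were at 0 in every library. The part of cells other than oocytes in the histone values was not tested.

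The stem-loop is shown first, because it is the element that sets these mRNAs apart. A search of the vM21 transcripts for a stem of 6 bases that opens with GG and a loop of 4 bases that begins with T found it in 46 of the 71 genes. Sites are given for 4 upregulated genes, the H4 gene of highest mean level and 2 downregulated genes. Capitals mark the stem and loop, with 5 flanking bases on each side.
Hist1h1e: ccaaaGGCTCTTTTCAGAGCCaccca
Hist1h3c: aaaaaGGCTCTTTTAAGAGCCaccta
Hist1h4d: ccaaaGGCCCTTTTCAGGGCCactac
Hist1h4j: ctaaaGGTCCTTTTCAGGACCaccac
Hist1h4c: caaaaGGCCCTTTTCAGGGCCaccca
Hist1h2bk: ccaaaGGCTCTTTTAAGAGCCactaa
Hist4h4: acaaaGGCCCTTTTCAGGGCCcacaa
Some upregulated and downregulated genes carried the same letters: Hist1h4d rose and Hist4h4 fell with an identical stem and loop. So did Hist1h3c and Hist1h2bk, while the other downregulated gene, Hist1h2bc, had no match. The commonest form, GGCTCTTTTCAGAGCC, was found in 26 genes, of which 22 were tested. Of these 9 (40.9%) were upregulated and none was downregulated, beside 23.8% and 6.56% of all tested genes. The H4 form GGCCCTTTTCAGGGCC was found in 7 tested genes, 2 (28.6%) of them upregulated and 1 (14.3%) downregulated, beside 23.8% and 6.56% of all tested genes. The remaining 25 genes had no match in their annotated transcripts, many of which stop at the end of the coding sequence, so a missing match says only that the letters are not in that model.

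The summed level of all 71 genes did not separate the groups. It was 983, 3007, 3259 and 2668 CPM in control replicates 1 to 4 and 1984, 1814, 3275 and 1203 CPM in KO replicates 1 to 4. Within each group 1 library was low, control replicate 1 and KO replicate 4, and the values of the groups overlapped (2479 ± 1026 CPM in control and 2069 ± 871 CPM in KO, SD, n = 4). Histone genes took between 0.0834% and 0.307% of the counts of control libraries and between 0.132% and 0.374% of those of KO libraries.

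The low libraries were low across the family. Of the 64 genes that passed the filter on low counts, 55 had their lowest control value in replicate 1, compared with 27.0% of all tested genes, which is close to 1 in 4. KO replicate 4 was the lowest KO library for 56 of the 64 (27.4% of all tested genes), and KO replicate 3 the highest for 56 (28.1%). Rn7sk, a small nuclear RNA that also lacks a poly(A) tail, was added to the comparison after its values were seen. It had 1818, 8172, 9539 and 7342 CPM in control and 5498, 6064, 8023 and 2811 CPM in KO libraries, with the same libraries low. The summed histone level divided by that of Rn7sk was 0.541, 0.368, 0.342 and 0.363 in control and 0.361, 0.299, 0.408 and 0.428 in KO libraries, again with overlap. Control replicate 1 and KO replicate 4 also had the highest total counts of their groups, 44092144 and 26784110. What made these libraries low was not tested. Single genes are therefore also described by their share of the counts of their class. Shares are parts of a whole, so the share of a gene falls when others of its class rise. Some of these shares moved with the low libraries too: Hist1h2ba held 55.1% of the H2B counts in control replicate 1 and 32.6% to 36.7% in the other control libraries, and 55.1% in KO replicate 4 and 37.5% to 46.8% in the other KO libraries.

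**Figure D1:**
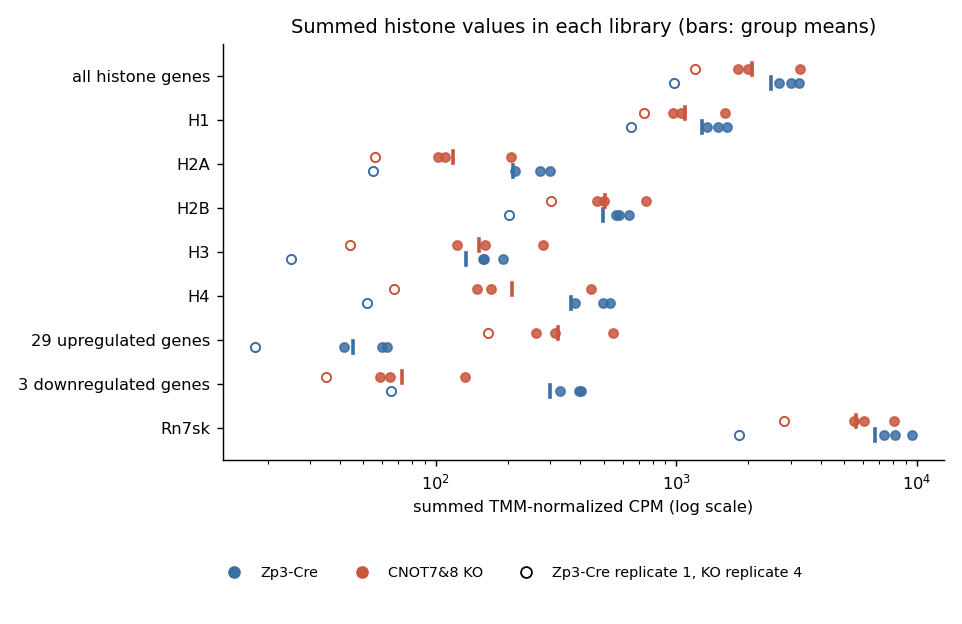
Summed TMM-normalized CPM (log axis) of all histone genes, of each class, of the 29 upregulated and 3 downregulated genes and of Rn7sk, with 1 point for each of the 4 Zp3-Cre (blue) and 4 CNOT7&8 KO (red) libraries and a bar at each group mean. The open points, control replicate 1 and KO replicate 4, are the lowest of their group in every row, and the groups overlap in every row except that of the upregulated genes, which were selected on these values.

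By class, the sums overlapped too. H1 genes, whose linker histones bind the DNA between nucleosomes, summed to 651, 1490, 1628 and 1340 CPM in control and 1044, 970, 1600 and 733 CPM in KO libraries. H2B genes summed to 494 ± 198 CPM in control and 505 ± 183 CPM in KO, and H3 genes to 133 ± 73.7 and 152 ± 98.3 CPM (SD, n = 4). H2A genes summed to 210 ± 109 CPM in control and 118 ± 62.9 CPM in KO, and H4 genes to 365 ± 219 and 207 ± 163 CPM. For H2A and H4 this is a log2 ratio of -0.82 each, which is smaller than the spread among libraries of a group, where H4 ranged from 52.0 to 533 CPM in control alone.

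Single genes did differ between the groups. Of the 64 tested histone genes, 29 (45.3%) were upregulated in CNOT7&8 KO oocytes at a false discovery rate of 0.05 and a fold change of 2, beside 23.8% of all tested genes, and 3 (4.69%) were downregulated, beside 6.56% of all tested genes. In 26 (40.6%) every KO library lay above every control library, beside 27.0% of all tested genes, and in 1, Hist1h2bc, every KO library lay below every control library, beside 21.4%. The median log2 fold change was 1.45 over the 64 genes and 0.12 over all genes. Without the 2-fold threshold the same numbers, 29 higher and 3 lower, were called. Leaving out control replicate 1 changed the number of downregulated genes from 3 to 9, and leaving out KO replicate 3 changed it to 7. The genes added without control replicate 1 were Hist1h2aa, Hist1h2ac, Hist1h2ah, Hist1h2bj, Hist1h4c and Hist1h4i. Without KO replicate 4, 35 genes were upregulated, with Hist2h2bb and Hist2h3b among those added. With control replicate 1 and KO replicate 4 both left out, a choice made after seeing the data, 28 of the 29 upregulated genes and the 3 downregulated genes were still called, and 31 and 7 were called in all.

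Most of the upregulated genes had low levels. Of 15 tested genes with a mean under 1 CPM over the 8 libraries 8 were upregulated, beside 35.5% of all genes in that interval, and of 29 genes at 1 to under 10 CPM 17 were (35.7% of all). Of 16 genes at 10 to under 100 CPM 4 were upregulated (12.7% of all), namely Hist1h1e, Hist1h4d, Hist1h1c and Hist1h1b, and of 4 genes at 100 CPM or more none was (1.57% of all). Together the 29 upregulated genes took 1.56% to 1.98% of the histone counts in control and 13.7% to 16.7% in KO libraries. These shares describe genes that were selected on the same values. They varied little within a group although the summed level varied more than 3-fold among control libraries (983 to 3259 CPM).

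Levels per kilobase used the longest annotated transcript with a stem-loop match, or the longest of all where none matched. The leading gene was Hist1h1a, at 1662 CPM per kb in control and 1209 in KO libraries. It was followed in control by Hist1h2aa (500), Hist1h2ba (481), Hist1h2bk (183) and Hist1h4c (178). In KO libraries Hist1h1a was followed by Hist1h2ba (580 CPM per kb), Hist1h2aa (264) and Hist2h2bb (187). Hist1h1e moved from 2.83 to 44.4 and Hist1h4d from 6.91 to 45.9 CPM per kb. The order depends on the annotated lengths. The models of Hist1h1a, Hist1h2ba, Hist1h2aa and Hist2h2bb have 741, 384, 390 and 381 bases and no stem-loop match. That of Hist4h4 has 2863 bases, of which 2445 follow the stem-loop, and that of Hist1h4c has 820, of which 454 follow it. Where the RNAs end in these oocytes was not tested.

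**Figure D2:**
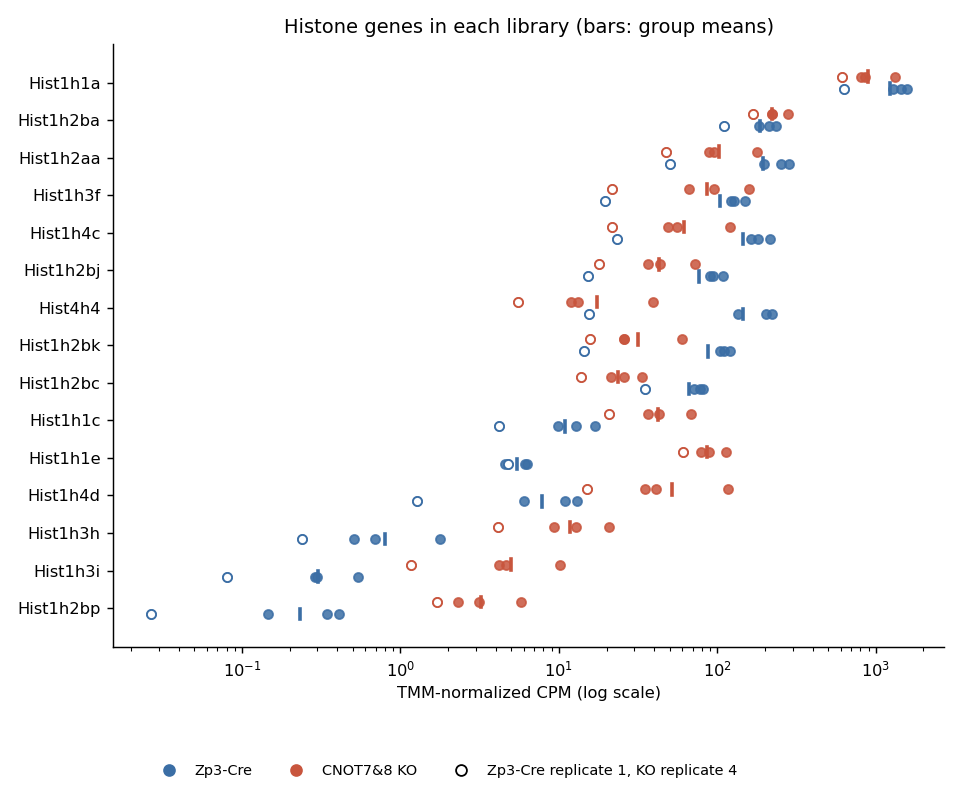
TMM-normalized CPM (log axis) of 15 histone genes in each of the 4 Zp3-Cre (blue) and 4 CNOT7&8 KO (red) libraries, with bars at the group means and open points for control replicate 1 and KO replicate 4. The abundant genes at the top overlap between groups, Hist1h2bc lies lower in every KO library, and from Hist1h1c downwards every KO value lies above every control value.

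Of the H1 genes 4 of 6 (66.7%) were upregulated and none was downregulated, beside 23.8% and 6.56% of all tested genes. No member of this class except Hist1h1e shares a stretch of 150 bases with another gene. Hist1h1a, which had the highest level of the 6 Hist1 linker genes in every library (chromosome 13, 23763666 to 23764406, plus strand), was at 629, 1435, 1567 and 1293 CPM in control and 854, 802, 1315 and 613 CPM in KO libraries. The groups overlapped, and its log2 fold change of -0.46 (SE 0.27, adjusted p = 0.165) did not pass. Its share of the H1 counts was 96.8%, 96.3%, 96.3% and 96.5% in control and 81.8%, 82.7%, 82.2% and 83.6% in KO libraries. A share can fall because other genes of the class rise, so the lower share does not show a lower level of Hist1h1a.

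Hist1h1e, a linker histone gene of somatic cells (chromosome 13, 23620629 to 23622558, minus strand), took up more of that difference in share than any other H1 gene. It was at 4.81, 6.12, 6.33 and 4.59 CPM in control and 88.7, 78.5, 114 and 61.1 CPM in KO libraries. Every KO library was well above every control library, a 15.7-fold rise (log2 fold change 3.97, SE 0.21, adjusted p = 9.25e-08 by edgeR's quasi-likelihood test). The gene's share of H1 counts went from between 0.343% and 0.740% to between 7.13% and 8.50%. Hist1h1e overlaps Hist1h2be and Gm11398 on the same strand, and 19.5% of its 150-base windows are shared with them, so reads there could have been counted on either gene.

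Hist1h1c and Hist1h1b, also linker genes of somatic cells, were upregulated, and Hist1h1d was not called. Hist1h1c was at 4.20, 12.9, 16.8 and 9.91 CPM in control and 42.8, 36.5, 68.6 and 20.7 CPM in KO libraries (a log2 fold change of 1.96, SE 0.40, adjusted p = 0.00144). Hist1h1b was at 1.10 to 5.43 CPM in control and 15.0 to 34.5 CPM in KO libraries (2.80, SE 0.42, adjusted p = 0.000148). Hist1h1d overlapped, with 9.25 to 31.6 CPM in control and 16.6 to 56.2 CPM in KO libraries (0.55, SE 0.38, adjusted p = 0.228). Hist1h1t, the linker histone gene of spermatocytes, was low in both groups but did not overlap, at 1.68, 3.55, 2.93 and 3.06 CPM in control and 7.60, 6.21, 11.9 and 6.13 CPM in KO libraries (1.52, SE 0.29, adjusted p = 0.000796).

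The H4 genes are all known to encode the same core histone. Of 13 tested 4 (30.8%) were upregulated and 1 (7.69%) was downregulated, not far from the 23.8% and 6.56% of all tested genes. Hist4h4, the single gene of its cluster (chromosome 6, 136801553 to 136804415, minus strand), was at 15.6, 222, 204 and 136 CPM in control and 11.9, 13.3, 39.3 and 5.52 CPM in KO libraries. Control replicate 1 fell within the KO range and the other control libraries lay above it. Its log2 fold change of -3.05 (SE 0.71, adjusted p = 0.00321), a level 8.27-fold lower, was the largest decrease of the family, and it was called in all 8 fits that left out 1 library, at -3.84 to -2.74. Its share of H4 counts did not overlap, at 29.9%, 44.7%, 38.4% and 36.0% in control and 7.02%, 9.01%, 8.87% and 8.20% in KO libraries.

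Hist1h4d moved the other way (chromosome 13, 23581598 to 23582735, plus strand). It was at 1.28, 11.0, 13.1 and 6.05 CPM in control and 40.9, 35.2, 117 and 15.1 CPM in KO libraries, without overlap (log2 fold change 2.76, SE 0.67, adjusted p = 0.00397). It held 2.47%, 2.21%, 2.47% and 1.60% of the H4 counts in control and 24.0%, 23.8%, 26.5% and 22.5% in KO libraries, and it shares no 150-base window with another gene. Hist1h4c, the leading H4 gene, was at 23.2, 181, 216 and 164 CPM in control and 55.7, 48.6, 121 and 21.6 CPM in KO libraries. The groups overlapped through control replicate 1 and the change did not pass (-1.24, SE 0.57, adjusted p = 0.0833). It passed without control replicate 1, without KO replicate 3, with edgeR's exact test and without the filter on low counts. Its share of H4 counts was 36.4% to 44.6% in control and 27.3% to 32.8% in KO libraries.

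**Figure D3:**
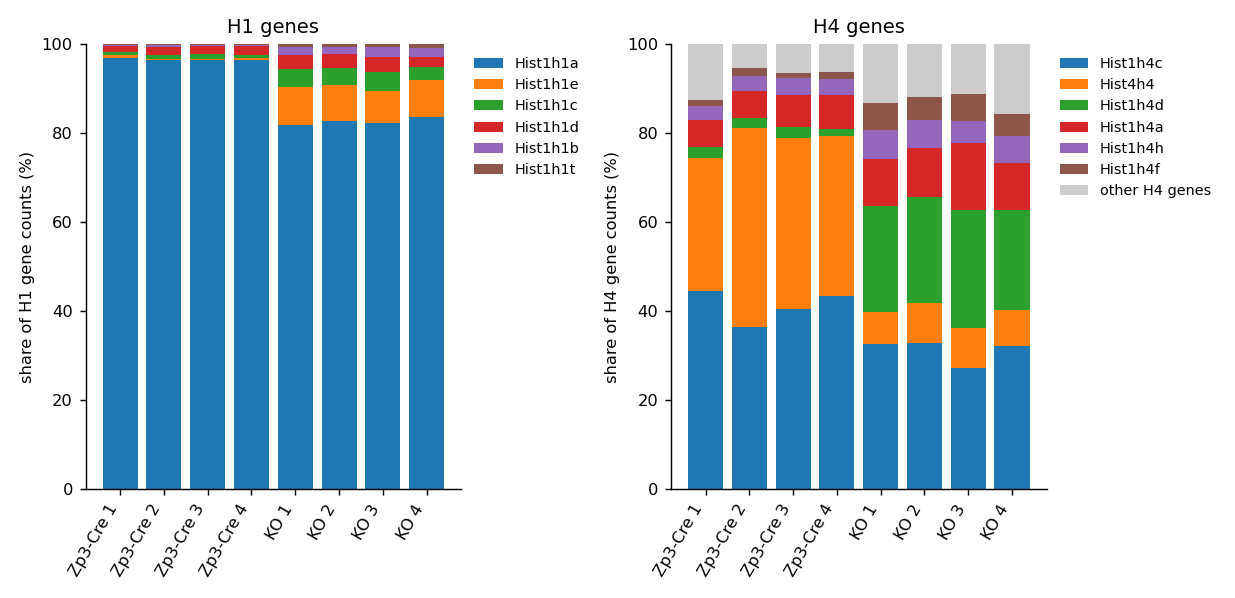
Share (%) of the H1 counts (left) and of the H4 counts (right) taken by each gene in each of the 8 libraries, as stacked bars from 0 to 100. In H1 the part of Hist1h1a was 96.3% to 96.8% in control and 81.8% to 83.6% in KO libraries, and in H4 Hist4h4 held 29.9% to 44.7% and 7.02% to 9.01% while Hist1h4d held 1.60% to 2.47% and 22.5% to 26.5%.

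The H4 genes with the largest increases were barely detected in control oocytes. Hist1h4j was at 0.0267, 0.247, 0.136 and 0 CPM in control and 2.28, 0.989, 4.44 and 0.817 CPM in KO libraries (a log2 fold change of 4.35, SE 0.78, adjusted p = 0.000572). Hist1h4m, chosen for mention after its values were seen, had 0 counts in all 4 control libraries and 0, 10, 44 and 7 counts in KO libraries, a level at least 5.38-fold higher than the mean control floor of 3 counts per library. Its 85.8% of windows shared with Hist1h4n make the split between these genes uncertain. Hist1h4n itself was not called (0.48, SE 0.45, adjusted p = 0.387).

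Among H3 genes 6 of 11 tested (54.5%) were upregulated and none was downregulated, beside 23.8% and 6.56% of all tested genes. Hist1h3f, which held 76.8% to 80.3% of H3 counts in control and 49.2% to 59.7% in KO libraries, was at 19.6, 122, 150 and 127 CPM in control and 95.6, 66.6, 159 and 21.7 CPM in KO libraries. These values overlapped (log2 fold change -0.29, SE 0.57, adjusted p = 0.688). Hist1h3a (-0.20, adjusted p = 0.780) and Hist1h3g (0.61, adjusted p = 0.296) were not called either. The largest increases were in Hist1h3i and Hist1h3h. Hist1h3i was at 0.0802, 0.296, 0.544 and 0.291 CPM in control and 4.67, 4.17, 10.1 and 1.16 CPM in KO libraries (4.19, SE 0.68, adjusted p = 0.000262). Hist1h3h was at 0.241, 0.691, 1.77 and 0.510 CPM in control and 12.9, 9.39, 20.6 and 4.16 CPM in KO libraries (3.98, SE 0.58, adjusted p = 0.000121). Both lay above every control value in every KO library, and 90.5% of the windows of Hist1h3h and 52.7% of those of Hist1h3i are shared with other H3 genes.

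The core histones H2A and H2B had testis-type genes in the lead. Hist1h2aa, which held 91.5% to 94.7% of H2A counts in control and 84.9% to 87.4% in KO libraries, was at 50.2, 283, 251 and 197 CPM in control and 95.3, 88.9, 179 and 47.6 CPM in KO libraries. Control replicate 1 lay within the KO values and the change did not pass (log2 fold change -0.92, SE 0.46, adjusted p = 0.103). It was called when control replicate 1 or KO replicate 3 was left out. Its divergent partner Hist1h2ba was at 111, 183, 234 and 211 CPM in control and 223, 221, 280 and 167 CPM in KO libraries, with overlap (0.27, SE 0.21, adjusted p = 0.293). Over the whole class, 6 of 16 tested H2A genes (37.5%) were upregulated and none was downregulated, beside 23.8% and 6.56% of all tested genes. Hist1h2ac (-0.74, adjusted p = 0.183) and Hist1h2ag (-0.40, adjusted p = 0.530) did not pass.

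Of 18 tested H2B genes 9 (50.0%) were upregulated and 2 (11.1%) downregulated, beside 23.8% and 6.56% of all tested genes. Hist1h2bc (chromosome 13, 23684199 to 23692908, plus strand) was at 35.2, 77.9, 81.1 and 71.4 CPM in control and 21.2, 25.8, 33.3 and 13.8 CPM in KO libraries. No other histone gene had all 4 KO values below all 4 control values (log2 fold change -1.50, SE 0.29, adjusted p = 0.000878). The longest annotated transcript of Hist1h2bc has 1156 bases within a longer gene span, and no stem-loop match. Hist1h2bk (chromosome 13, 22035870 to 22036345, plus strand) was at 14.4, 104, 110 and 121 CPM in control and 25.6, 25.7, 59.6 and 15.7 CPM in KO libraries. Its call was weak (-1.46, SE 0.54, adjusted p = 0.0348): control replicate 1 lay below the KO values, and 60.9% of its windows are shared with other H2B genes. The call was lost with DESeq2, with library size only, with TMM on genes of at least 10 CPM, and when any 1 of control replicates 2, 3 and 4 or KO replicates 1, 2 and 4 was left out. The neighboring Hist1h2bj was at 15.2, 93.3, 108 and 90.3 CPM in control and 43.3, 36.7, 72.3 and 18.0 CPM in KO libraries (-0.85, SE 0.50, adjusted p = 0.167). The largest increase was that of Hist1h2bp, at 0.0267, 0.345, 0.408 and 0.146 CPM in control and 3.15, 2.31, 5.74 and 1.70 CPM in KO libraries (3.93, SE 0.61, adjusted p = 0.000187).

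The counts of upregulated genes were also taken along the Hist1 cluster. Genes less than 100000 bases apart were grouped, which split the cluster on chromosome 13 into 4 stretches beside 1 lone pseudogene, Hist1h2al. In the first stretch, from 21715763 to 21837530, 13 of 14 tested genes (92.9%) were upregulated, beside 23.8% of all tested genes. All 5 classes were among them, and the median log2 fold change of the 14 was 3.88. The summed level of the stretch, with untested genes, was 2.86 to 14.4 CPM in control and 40.0 to 146 CPM in KO libraries, without overlap. In the second stretch, from 22035164 to 22043676, none of 5 genes was upregulated, Hist1h2bk was downregulated, and the log2 fold changes were -1.46 to -0.40. In the third, from 23531050 to 23764406, 13 of 29 genes (44.8%) were upregulated. There 1 gene (3.45%), Hist1h2bc, was downregulated, beside 6.56% of all tested genes. In the fourth, from 23933773 to 23934851, neither Hist1h2ba nor Hist1h2aa was called. The stretches also differed in level, since the first held only genes of at most 5.43 CPM in control libraries, so position and level cannot be told apart here.

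**Figure D4:**
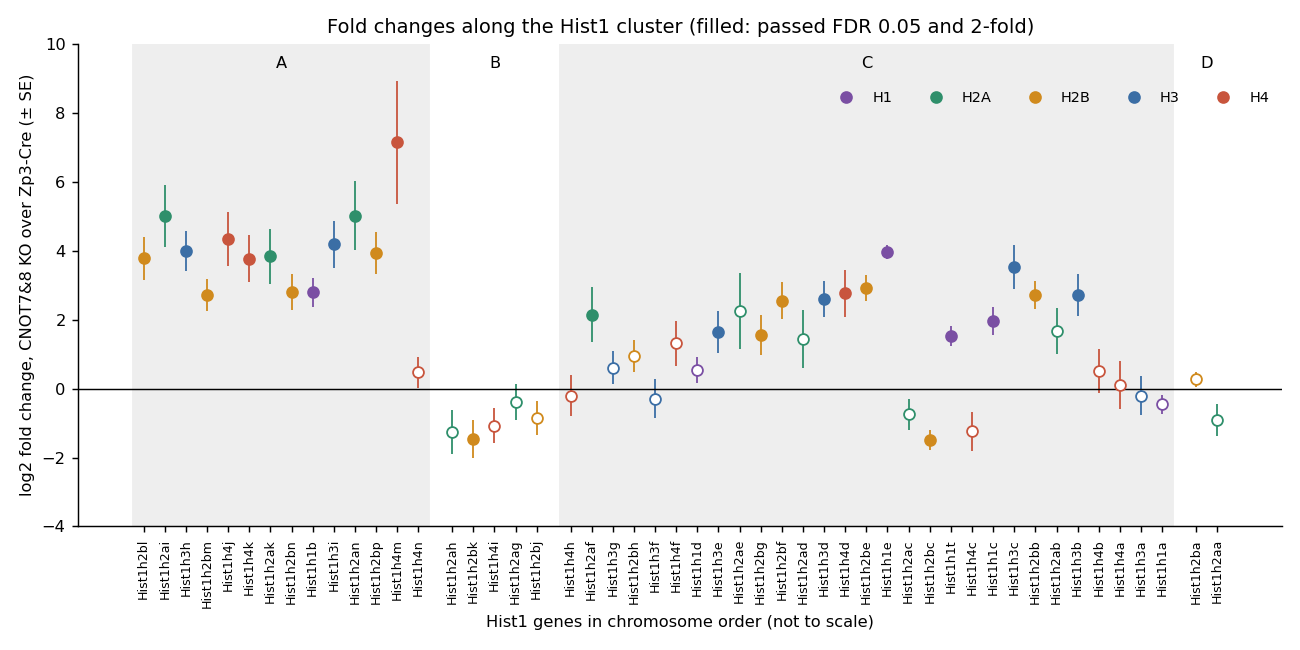
Log2 fold change (KO over control) with its standard error for the 50 tested genes of the 4 stretches of the Hist1 cluster (A to D), in chromosome order but not to scale, colored by class and filled where the gene passed the test. In A 13 of 14 genes were upregulated, in B none of 5, in C 13 of 29 and in D none of 2, beside 23.8% of all tested genes.

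The Hist2, Hist3 and Hist4 clusters are small. Of 9 tested Hist2 genes 3 (33.3%) were upregulated, beside 23.8% of all tested genes. They were Hist2h2ac (log2 fold change 3.10, SE 0.75, adjusted p = 0.00388), Hist2h2ab (2.08, SE 0.41, adjusted p = 0.00103) and the noncoding second row of Hist2h2bb (1.45, SE 0.45, adjusted p = 0.0160). Hist2h2bb, the coding gene and the most abundant of the cluster, was at 10.8, 55.7, 50.8 and 42.5 CPM in control and 77.9, 68.7, 105 and 33.2 CPM in KO libraries, with overlap (0.84, SE 0.43, adjusted p = 0.113). Every one of its windows is shared with an overlapping gene. Hist2h3b (1.75), Hist2h2be (1.45), Hist2h3c2 (1.42), Hist2h2aa2 (0.20) and Hist2h4 (0.02) were not called, at adjusted p of 0.075 to 0.963. None of the 3 Hist3 genes was called: the log2 fold changes were 0.44 for Hist3h2ba, 0.34 for the pseudogene Hist3h2bb-ps and -0.39 for Hist3h2a, at levels of 1.04 to 12.5 CPM.

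Most H2A genes lie back to back with an H2B gene, and their start sites are at most 306 bases apart. There were 14 such H2A and H2B pairs, and a 15th pair joined Hist1h2bh and Hist1h3f. Of the 11 H2A and H2B pairs with both genes tested, 9 had log2 fold changes of the same sign, 3 had both genes upregulated, and in 5 only 1 gene was called. For comparison, 45.3% of the tested histone genes were upregulated and 4.69% downregulated, beside 23.8% and 6.56% of all tested genes. The median log2 fold change of the tested histone genes was 1.45, so equal signs can be common among any of them. Whether partners were more alike than unpaired genes was not tested. No pair had calls in opposite directions. The pairs Hist1h2ai and Hist1h2bl (5.01 and 3.78), Hist1h2an and Hist1h2bp (5.02 and 3.93) and Hist1h2ak and Hist1h2bn (3.84 and 2.80) rose in both members. In Hist1h2ah and Hist1h2bk (-1.25 and -1.46) and in Hist1h2ac and Hist1h2bc (-0.74 and -1.50) both values were negative but only the H2B gene passed. The 2 pairs with opposite signs, Hist1h2aa with Hist1h2ba and Hist3h2a with Hist3h2bb-ps, had no called gene. Hist1h2ai and Hist1h2an had at most 1 count in each control library, so their values depend on the prior count of the fit.

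**Figure D5:**
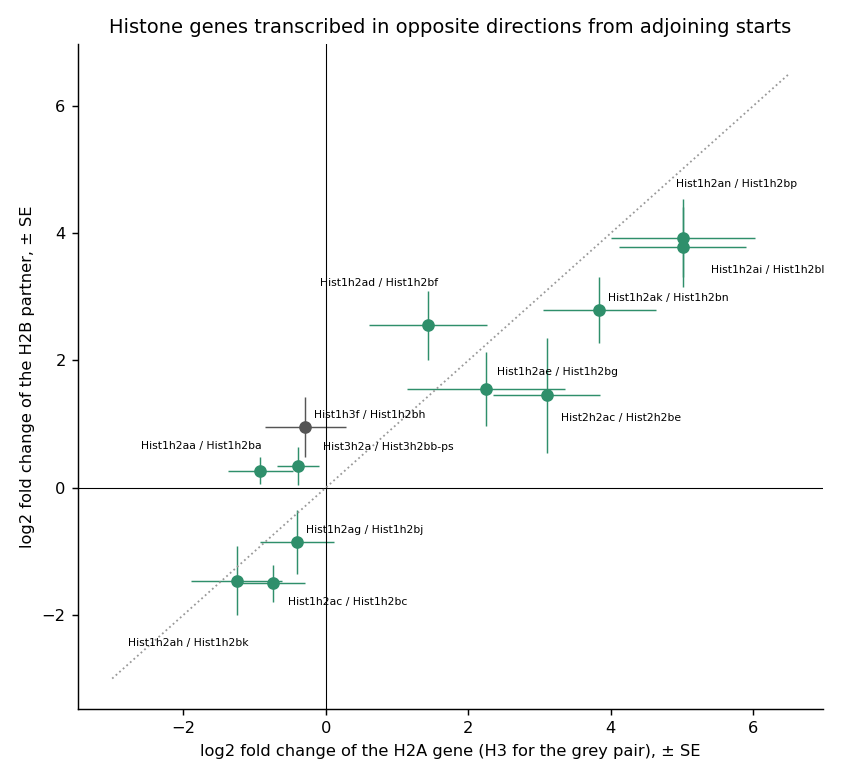
Log2 fold change (KO over control, with standard errors) of the H2A gene against that of its H2B partner for 11 divergent pairs (green), and of Hist1h3f against Hist1h2bh (grey), with a dotted line of equal values. Of the 11 pairs 9 lie in the quadrants of equal sign. The median log2 fold change of all tested histone genes was 1.45, and pairs were not compared with unpaired genes.

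The promoters of 1 pair that rose and of 1 with a downregulated gene are given, with that of Hist1h1e, because partners of a pair share the bases between their starts. The sequences are from RefSeq (GRCm38.p6), 250 bases before to 50 after the annotated start, and capitals mark the octamer ATTTGCAT, the CCAAT box and, with the letters TATAAA, the TATA box on either strand.
Hist1h2bl, chr13:21716134-21716433, minus strand, which reaches Hist1h2ai: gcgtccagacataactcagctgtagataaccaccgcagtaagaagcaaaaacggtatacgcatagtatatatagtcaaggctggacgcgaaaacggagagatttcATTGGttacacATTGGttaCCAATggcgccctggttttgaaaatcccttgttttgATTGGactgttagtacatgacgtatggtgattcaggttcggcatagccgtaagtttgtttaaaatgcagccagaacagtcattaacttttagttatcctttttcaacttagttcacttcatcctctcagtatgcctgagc
Hist1h2bk, chr13:22035571-22035870, plus strand, beside Hist1h2ah: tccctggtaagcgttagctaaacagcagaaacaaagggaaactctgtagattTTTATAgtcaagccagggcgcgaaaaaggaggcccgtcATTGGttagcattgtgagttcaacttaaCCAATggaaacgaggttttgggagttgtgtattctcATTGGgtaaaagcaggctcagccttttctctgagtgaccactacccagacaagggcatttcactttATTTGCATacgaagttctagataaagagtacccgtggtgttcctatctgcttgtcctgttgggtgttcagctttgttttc
Hist1h1e, chr13:23622509-23622808, minus strand: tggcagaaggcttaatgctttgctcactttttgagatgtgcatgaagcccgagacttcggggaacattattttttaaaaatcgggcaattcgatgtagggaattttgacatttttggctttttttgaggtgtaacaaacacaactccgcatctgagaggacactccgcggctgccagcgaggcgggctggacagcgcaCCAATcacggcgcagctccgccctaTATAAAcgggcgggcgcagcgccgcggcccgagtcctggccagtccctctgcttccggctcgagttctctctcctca
The octamer, which OCT1 is known to bind in H2B promoters, was in the Hist1h2bk window and not in that of Hist1h2bl. Of 61 histone genes matched to a RefSeq promoter 14 (22.95%) held it, all of them H2A or H2B genes, beside 1.74% of 27025 promoters. CCAAT was in 85.25% of the 61, beside 37.78% of all promoters, and in 3 of 12 H4 promoters but in every H1, H2A, H2B and H3 promoter matched. TATAAA was in 57.38%, beside 14.14% of all promoters. Of 28 upregulated genes with a promoter, 5 held the octamer, 25 CCAAT and 19 TATAAA, and of 28 other tested genes 9, 22 and 15 did. A match is a description of the letters and not a bound site, and these short motifs do not overlap one another in the windows shown.

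Reads on near-identical histone genes can be split in a way the deposited counts do not show. Of the 71 genes 56 share at least 1 window of 150 bases, the read length, with transcripts of another gene. For the counts that follow, 23.8% of all tested genes were upregulated and 6.56% downregulated. Among the 15 tested genes with no shared window 7 (46.7%) were upregulated and none was downregulated, with a median log2 fold change of 1.45. Of 27 tested genes with over 25% of windows shared 13 were upregulated and 1 downregulated (median 1.63). Of 22 tested genes with more than 100 annotated bases after the stem-loop 9 were upregulated (median 1.18), and of 20 with a stem-loop and a shorter end 8 were (median 1.37). Of 22 tested genes without a match to the stem-loop 12 were upregulated (median 1.92).

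The RNAs of factors that act on histone mRNA were compared by lists. Of 14 genes for 3' processing 1 (7.14%) was upregulated and 1 (7.14%) downregulated, beside 23.8% and 6.56% of all tested genes. Slbp, whose protein binds the stem-loop, was at 951, 736, 738 and 709 CPM in control and 664, 748, 706 and 803 CPM in KO libraries, with overlap (log2 fold change -0.10, SE 0.12, adjusted p = 0.485). Its sign turned with library size only (0.19), with TMM on genes of at least 10 CPM (0.16) and without control replicate 1 (0.01). Sympk, a scaffold of the cleavage complex, fell (55.3, 85.5, 76.6 and 87.6 CPM in control, 31.4, 20.2, 36.6 and 20.1 CPM in KO; -1.50, SE 0.22, adjusted p = 0.000107). Ncbp1, which binds the cap, rose from 4.52 to 8.96 CPM in control to 17.2 to 20.2 CPM in KO libraries (1.46, SE 0.20, adjusted p = 8.35e-05). Of 8 genes for decay of histone mRNA 1 (12.5%) was downregulated, beside 6.56% of all tested genes, and none was upregulated. That gene, Upf1, which encodes a helicase required for the decay, was at 246, 418, 306 and 378 CPM in control and 133, 109, 148 and 88.0 CPM in KO libraries (-1.50, SE 0.19, adjusted p = 4.16e-05).

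Of 9 genes for histone gene transcription 3 (33.3%) were upregulated, beside 23.8% of all tested genes, and none was downregulated. With lists this short, the shares are descriptions only. Npat, a coactivator at histone genes, was at 52.9, 37.4, 37.7 and 37.7 CPM in control and 87.7, 88.7, 83.6 and 110 CPM in KO libraries (a log2 fold change of 1.16, SE 0.15, adjusted p = 4.18e-05). Ccne1 and Ccne2, which encode the cyclins of the kinase that activates NPAT, rose too (1.92, adjusted p = 7.25e-06, and 1.37, adjusted p = 8.68e-06), with every KO library above every control library for both genes. Of 15 genes for histone chaperones and carriers 2 (13.3%, beside 6.56% of all tested genes) were downregulated, Mcm2 (-1.28, SE 0.21, adjusted p = 0.000288) and Ipo4 (-1.15, SE 0.21, adjusted p = 0.000692), and none was upregulated. These counts moved with scaling: with library size only 10 genes of the 4 lists were upregulated in place of 4.

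Replication-independent histone genes, most of which are known to make mRNAs with poly(A) tails, were listed for contrast. None of 12 was upregulated or downregulated, beside 23.8% and 6.56% of all tested genes, although 6 were lower and 1 was higher at the false discovery rate alone. Most of the 12 had a mean of at least 10 CPM. Of all genes, 12.7% were upregulated at 10 to under 100 CPM and 1.57% at 100 CPM or more, so few calls would be usual at these levels. The most abundant, H1foo, the linker histone of oocytes, was at 2715, 3652, 3667 and 3601 CPM in control and 2241, 2304, 2150 and 1618 CPM in KO libraries (a log2 fold change of -0.71, SE 0.14, adjusted p = 0.000995), below the 2-fold threshold. The difference between the replication-dependent and replication-independent genes was not tested.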

How the data were processed

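The authors removed ribosomal RNA, sequenced read pairs of 150 bases, ran nf-core/rnaseq, in which STAR 2.6.1d aligned them to GRCm38, and deposited raw read counts per gene, with no normalization and no pooling of replicates. The counting tool, annotation and strand setting are not given in the sources used here, so counts of overlapping and near-identical genes are uncertain. Groups and replicate numbers came from the labels, and columns were matched to samples by genotype and number.

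The counts were analyzed in R 4.3.3. Genes with at least 0.2 CPM in 2 libraries (19241 genes, 64 of the 71 histone genes) were tested with edgeR 4.0.16, TMM scaling, its quasi-likelihood test and Benjamini-Hochberg adjustment over all genes, and were called at a false discovery rate of 0.05 and a fold change of 2. The study's methods use the exact test of edgeR 3.11, which was tried here as an alternative, as were DESeq2 1.42.0, other scalings and filters, a replicate block and leaving out libraries. The 7 histone genes not tested had at most 2 counts in any library, and 4 of them had none. Total counts of 8639444 to 44092144 set the precision of low values.

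Classes were read from the symbols. Annotation was GENCODE vM21, in which 69 histone genes were found by identifier and 2 by symbol, and RefSeq promoters were matched for 61. Sequences were read with Python 3.11.15 and pandas 2.3.3, and figures were drawn with matplotlib 3.10.9. The named genes were the 3 most abundant of each class by mean CPM, all tested Hist2, Hist3 and Hist4 genes, the 5 called genes with the largest increase and with the largest decrease at a mean of at least 1 CPM, the testis histone genes, Slbp, and the called genes of the lists. The other genes given with values serve as examples and were chosen after their values were seen. The histone genes, the lists of processing, decay, transcription, chaperone and replication-independent genes and the cell type markers were chosen with earlier results of these data known.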

Additional observations from a re-analysis of the deposited data

Results flagged for a closer look

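In 5 of 96 groups of 4 libraries examined (the named genes and the class sums), 1 value stood out in Dixon's test at the 95% level, which chance alone flags in about 1 of 20 groups. Of the 5, 4 were control replicate 1. Hist1h2bk was at 14.4 CPM in it and at 104 to 121 CPM in the other control libraries. The H2B genes, which include Hist1h2bk, summed to 201 CPM in it and to 562 to 636 CPM in the others. Slbp was at 951 CPM in control replicate 1 and at 709 to 738 CPM in the others, and Npat at 52.9 CPM and at 37.4 to 37.7 CPM. Histone genes were low in that library, but a link to these 2 genes was not tested, and the flags were about as many as chance gives. The fifth was Hist3h2a in KO replicate 3, at 2.41 CPM beside 1.26 to 1.36 CPM in the other KO libraries.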

How the results depend on the processing

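The number of upregulated histone genes (29) stayed within 1.5 times its value under every alternative run, at 26 to 35 when 1 library was left out, and 26 of the 29 were called in all 8 of those fits. The number of downregulated genes (3) was 5 without a filter on low counts, 7 without control replicate 1 and KO replicate 4 (chosen after seeing the data), and 2 to 9 when 1 library was left out. Factors of the 4 lists called upregulated (4) numbered 10 with library size only, 10 with TMM on genes of at least 10 CPM and 11 without the 2-fold threshold, and those downregulated (4) numbered 16 without it. The median log2 fold change of histone genes (1.45) was 0.68 with a filter of 1 CPM in 4 libraries, which tests fewer low genes. The log2 ratio of the summed level (-0.26) was 1.03 when single log2 values were averaged in place of a sum.

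The sign turned only in genes that were not called. Hist1h3a was 0.07 with library size only and 0.02 with TMM on genes of at least 10 CPM, Slbp was 0.19 and 0.16 in the same fits and 0.00 with upper quartile scaling. With 1 library left out the ranges were -0.78 to 0.03 for Hist1h3f, -0.76 to 0.10 for Hist1h3a, -0.04 to 0.68 for Hist2h2aa2, -0.35 to 0.24 for Hist2h4 and -0.15 to 0.01 for Slbp. The cause was not tested.

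Deviations of same-numbered libraries correlated at -0.072, -0.042, 0.11 and -0.121, and those of differently numbered libraries at -0.331 to 0.372. With so few libraries these values cannot show whether the replicate number pairs the samples. With the number as a replicate block, 29 histone genes were upregulated and 4 downregulated (4316 and 1254 of all genes), and Hist2h2aa2 (-0.08) and Hist2h4 (-0.07) changed sign. With library size only, the median of all genes moved from 0.12 to 0.41, and 29 of the 29 upregulated and 2 of the 3 downregulated histone genes were still called. Depth limits the low genes: 7 tested genes had at most 3 counts in each control library, and 4 of those were called upregulated.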
